A study of Homo sapiens with 9 samples.

Results

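Accessible regions of chromosome 14 between 20 and 40 Mb (GRCh37) were examined, a stretch of dense peaks, here called the dense stretch. All ATAC-seq peaks of 3 peak lists were merged where they overlapped or touched. The dense stretch held 3211 of the 6014 regions of chromosome 14 and of the 111239 regions of the whole series. From 40 Mb to the end of the chromosome there were 2777 regions, and the other 26 lay before 20 Mb. The dense stretch was selected on its peak density and its local background in these lists, so both are given as descriptions and no test was made on them. The 69881 regions of the autosomes other than 2, 6 and 14 served as the reference.

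The cells were HepG2, a human liver cancer line, and all of them received 50 nM of siRNA by lipid transfection for 72 hours. The control group received the non-targeting siRNA AM4611 (NTG), and the knockdown groups received siINO80#1 or siINO80#2, which are 2 siRNAs that target the INO80 ATPase. There were 3 replicates (A, B and C) in each of the 3 groups, or 9 samples. The authors deposited 1 peak list per group, of 69730 peaks for NTG, 69333 for siINO80#1 and 53113 for siINO80#2, so no value per replicate was used, the spread among replicates is unknown and no p-value is given. Each list holds genomic intervals in which transposase insertions were more frequent than around them. With NTG set to 1, the read numbers estimated from the peak values were 1.43 in siINO80#1 and 1.44 in siINO80#2. This assumes that reads were extended to the width of the narrowest peak of each list (148, 140 and 144 bp), which the sources do not state. Absolute depth is unknown. The level of INO80 itself was not measured in these lists.

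In ATAC-seq a transposase cuts DNA that is not wrapped in nucleosomes and tags it for sequencing, so that promoters, enhancers and other regulatory elements appear as peaks. The INO80 complex slides nucleosomes and exchanges histones, and YY1 is its DNA-binding partner. HepG2 cells carry extra copies of several chromosomes, and more copies of a stretch give more reads from it, both in peaks and between them. The number of copies of chromosome 14 was not measured here, and its part in the results was not tested.

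Start sites of liver genes carried peaks. A region or a promoter is called open in a list where that list has a peak, and a missing peak may also be one that was too weak to be called. Of 12 hepatocyte and HepG2 marker genes, 9 had a peak within 1 kb of a start site in all 3 lists, FGB had none, and ALB and AFP had peaks in NTG and siINO80#1 and none in siINO80#2. The fold enrichment at AFP was 7.02 in NTG and 7.46 in siINO80#1. Among the leukocyte markers CD14 had a peak in all 3 lists and PTPRC in siINO80#1 only, and 3 had none. Of 5 fibroblast and muscle markers PDGFRB had a peak in all 3 lists and 4 had none, and of 4 neuron markers SNAP25 had a peak in siINO80#1, SYP had one in both siINO80 lists and the other 2 had none.

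The sequences at 4 summits are shown because they carry the classes compared here, namely a region open in all 3 lists, regions open with both siRNAs against INO80 and not in NTG, and a region open in NTG alone. Each is 121 bases of the plus strand of GRCh37, centred on the summit of its strongest peak. Capitals mark TGACTCA on either strand, the site bound by the AP-1 transcription factors (it reads TGAGTCA on the other strand).
All 3 lists, intron of LINC00609, chr14:36560419-36560539: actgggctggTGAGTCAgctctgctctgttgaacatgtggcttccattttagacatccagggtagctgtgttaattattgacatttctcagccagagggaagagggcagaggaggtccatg
Both siINO80 lists, between genes, chr14:32371359-32371479: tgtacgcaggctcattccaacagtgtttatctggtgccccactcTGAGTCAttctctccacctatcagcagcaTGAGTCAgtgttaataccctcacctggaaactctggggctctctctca
Both siINO80 lists, between genes, chr14:32462856-32462976: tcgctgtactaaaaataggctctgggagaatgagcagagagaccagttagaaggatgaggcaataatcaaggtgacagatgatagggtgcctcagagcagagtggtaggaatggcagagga
NTG alone, intron of MIPOL1, chr14:37699954-37700074: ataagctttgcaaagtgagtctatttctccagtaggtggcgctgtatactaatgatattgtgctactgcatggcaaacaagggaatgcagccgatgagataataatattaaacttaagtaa
The first held the AP-1 site once and the second held it at 2 places, whereas the third and the fourth held none. The highest-ranked region of both siINO80 lists, at OR4E1, is not printed and held no AP-1 site in its 121 bases. The printed sequences are examples only. In the dense stretch the site was found in 15.7% of the 185 regions of that class, in windows of 200 bp.

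Regions open in all 3 lists were ranked by the lowest percentile of fold enrichment that they had in any list. The highest was the first of these, chr14:36559997-36560993, within an intron of the long noncoding RNA gene LINC00609. Its fold enrichment, the ratio of reads at the summit to the local background of the same list, was 13.53 in NTG, 14.36 in siINO80#1 and 14.28 in siINO80#2. The local background under it was 3.94, 4.15 and 3.87 times the genome background of the respective list. It was thus among the strongest peaks of every list although the background under it was high, and the nearest start site of a protein-coding gene, MBIP, was 209747 bp away. The next regions by this rank lay at the promoter of EAPP (chr14:35008115-35010121; 13.61, 13.06 and 11.64), at an exon of MIPOL1 (chr14:38015666-38016675; 13.51, 14.87 and 11.34) and at the promoter of TOX4 (chr14:21944503-21945883; 12.98, 12.95 and 11.28).

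Regions found with both siRNAs against INO80 and not in NTG were weaker. The strongest overlapped an exon of the olfactory receptor gene OR4E1 (chr14:22136618-22137160), with a fold enrichment of 4.64 in siINO80#1 and 4.29 in siINO80#2. The region shown above with the AP-1 site at 2 places (chr14:32370976-32371938) reached 4.20 and 4.11 and lay 58469 bp from the start site of NUBPL, which encodes an assembly factor of respiratory complex I. The third (chr14:32462603-32463098) reached 3.58 and 3.53, with ARHGAP5 as the nearest protein-coding gene. In NTG alone, the highest values were 5.14 in an intron of MIPOL1 (chr14:37699949-37700357), 4.97 between genes near PRKD1 (chr14:29990820-29990987) and 4.42 in an intron of FAM177A1 (chr14:35547342-35547592). The first of them stood at the percentile 77.5 of its list, so the regions of NTG alone with the highest fold enrichment were not among the strongest peaks of the list.

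The 2 widest regions were 3243 bp at the start of the long noncoding RNA gene ENSG00000286527 (chr14:32670229-32673471) and 3197 bp near the start of ANG (chr14:21149487-21152683). Both were open in all 3 lists. After 40 Mb the leading region of all 3 lists, chr14:88237569-88237819, reached 24.45, 27.09 and 27.22 in an intron of ENSG00000258807, and the second was the promoter of CEP128 (chr14:81407498-81408694; 14.09, 13.72 and 12.34). The leading region of both siINO80 lists there, in an intron of LINC02328 (chr14:86470461-86470800; 4.55 and 6.16), also held the AP-1 site near its summit, and the leading region of NTG alone (chr14:87427546-87427729) reached 8.72.
LINC02328 intron, both siINO80 lists, chr14:86470505-86470625: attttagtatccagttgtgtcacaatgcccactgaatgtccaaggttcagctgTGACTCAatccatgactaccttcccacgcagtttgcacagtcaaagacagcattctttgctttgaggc

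The dense stretch held 1646 peaks in NTG, 1813 in siINO80#1 and 1517 in siINO80#2. This corresponded to 82.3 peaks per Mb in NTG (95% exact Poisson interval 78.4 to 86.4), 90.65 in siINO80#1 (86.5 to 94.9) and 75.85 in siINO80#2 (72.1 to 79.8). In the reference there were 21.3, 20.8 and 15.9 peaks per Mb. All intervals given here cover counting error only and treat neighbouring peaks as independent, which they are not. Peaks covered 3.47%, 3.78% and 3.19% of the dense stretch and 0.958%, 0.959% and 0.733% of the reference.

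The density did not end at 40 Mb. The bins of 1 Mb just inside and just outside this border held 127 and 129 peaks in NTG, 136 and 165 in siINO80#1, and 122 and 124 in siINO80#2. From 40 to 44 Mb there were 437, 520 and 411 peaks, or 109, 130 and 103 per Mb, above the values of the dense stretch itself. From 44 Mb to the end there were 19.5, 19.5 and 14.9 peaks per Mb, below the reference values in each list. The stretch from 40 to 44 Mb was separated from the rest after these values had been seen, and both are given below.

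**Figure D1:**
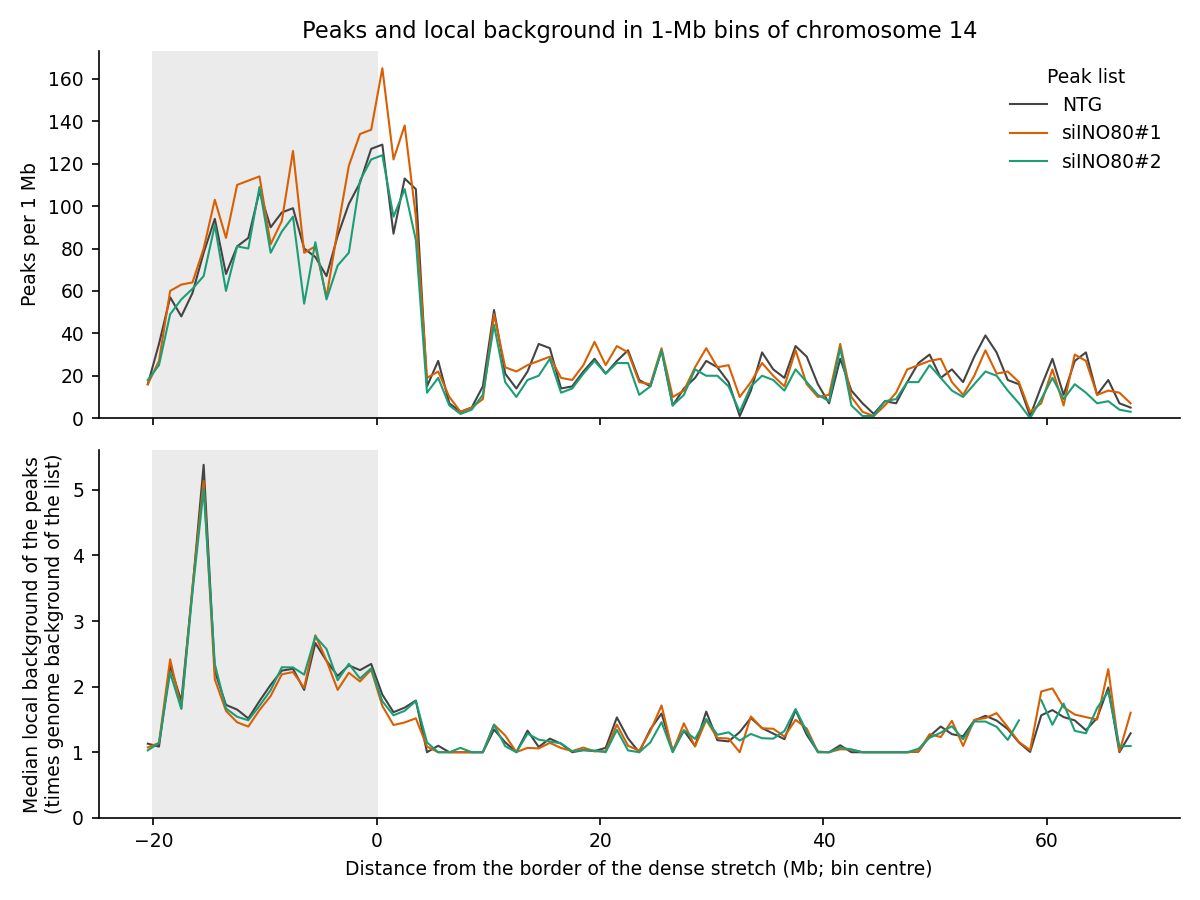
Peaks per 1-Mb bin (upper panel) and median local background of the peaks in each bin, in multiples of the genome background of the list (lower panel), against the distance of the bin centre from the 40 Mb border of the dense stretch (shaded), for each of the 3 peak lists. Peak numbers stayed high for 4 Mb past the border and then fell to a median of 18 per bin in NTG, and the highest background, 5.38 in NTG, lay in a bin of 78 peaks.

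The fall in density was abrupt and was located at the same place in each list. In bins of 200 kb it lay at 43.8 Mb, where NTG went from 39 peaks to 1, siINO80#1 from 32 to 1 and siINO80#2 from 31 to 0. In each list this was the largest drop among the 537 pairs of neighbouring bins of the chromosome. The 2 Mb before it held 245, 258 and 207 peaks, and the 2 Mb after it 40, 39 and 28. The order was turned around for peaks with a fold enrichment of at least 4, of which there were 9, 6 and 3 before the step and 20, 20 and 21 after it. The median local background fell from 1.71 to 1.10 in NTG, from 1.48 to 1.09 in siINO80#1 and from 1.67 to 1.15 in siINO80#2. Annotated start sites of protein-coding genes were fewer before the step, with 5 in the 2 Mb before and 69 in the 2 Mb after.

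**Figure D2:**
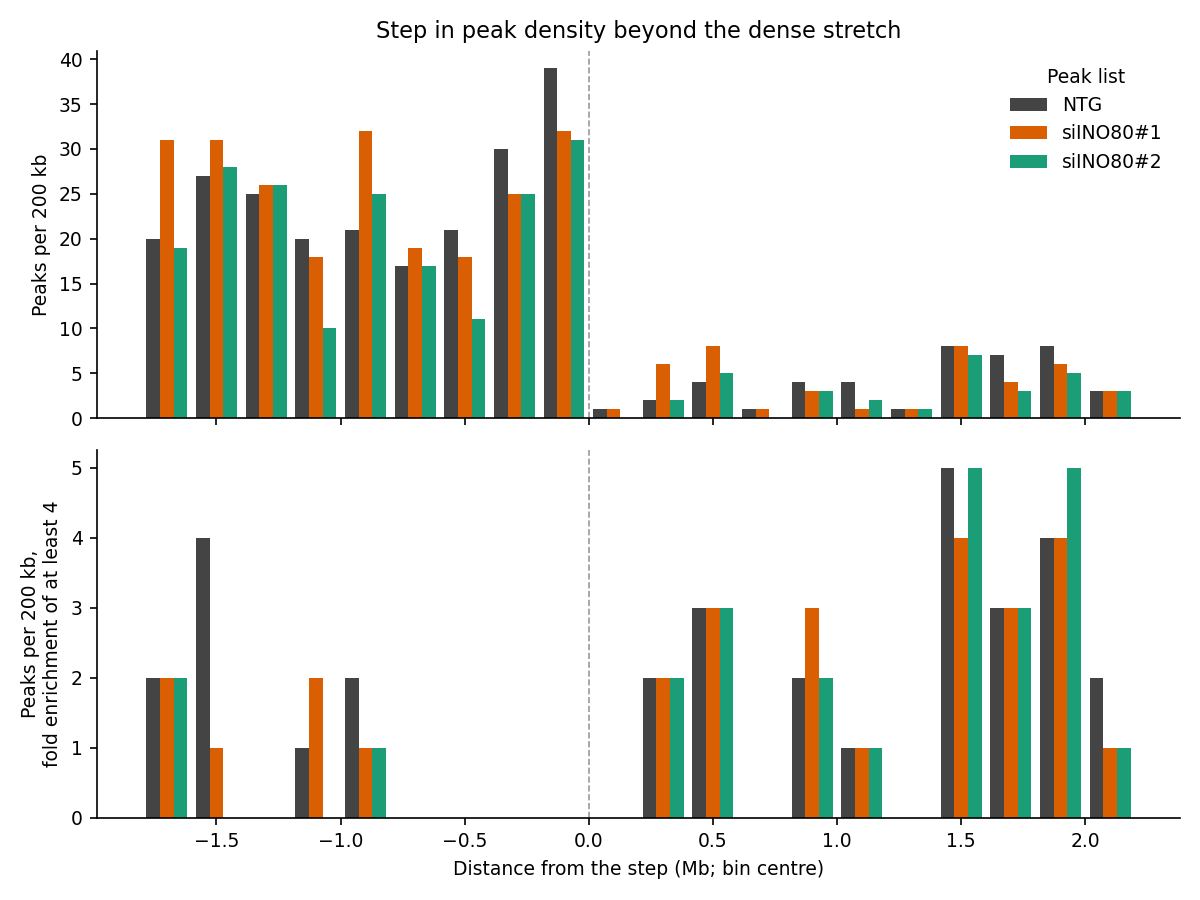
Peaks per 200 kb (upper panel) and those with a fold enrichment of at least 4 (lower panel) in the 3 peak lists, against the distance from the step at 43.8 Mb (dashed line). All peaks fell from between 31 and 39 per bin to at most 1 across the step, whereas the 2 Mb before it held fewer peaks with a fold enrichment of at least 4 than the 2 Mb after it.

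Within the dense stretch, the 20 bins of 1 Mb held between 35 and 127 peaks in NTG (median 83), between 27 and 136 in siINO80#1 (median 87) and between 25 and 122 in siINO80#2 (median 78). The lowest bin was the first, from 20 Mb, and the highest the last, up to 40 Mb, in each list. The highest local background was found from 24 to 25 Mb, at 5.38, 5.14 and 5.01 times the genome background, in a bin of 78, 80 and 67 peaks, close to the median number. Over the 20 bins, Spearman's rho between peaks and local background was 0.105 in NTG, -0.107 in siINO80#1 and 0.126 in siINO80#2, and between local background and the number of protein-coding genes it was 0.587, 0.608 and 0.521. Between peaks and protein-coding genes it was -0.284, -0.413 and -0.274. These are descriptions of neighbouring bins that share a library. From 44 Mb to the end, the last of these values were 0.689, 0.610 and 0.612, of the opposite sign.

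The peaks of the dense stretch were weak relative to their surroundings. Their median fold enrichment was 2.70 in NTG, 2.49 in siINO80#1 and 2.47 in siINO80#2, against 3.53, 3.39 and 3.35 in the reference. The median local background was 2.11, 2.00 and 2.12 times the genome background, against 1.20, 1.17 and 1.19 in the reference. It was also raised far from start sites, since peaks more than 10 kb from any start site had a median background of 2.01, 1.90 and 2.03 in the dense stretch and of 1.01, 1.00 and 1.02 in the reference. On chromosome 20 the corresponding values were 1.64, 1.61 and 1.66.

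Many of these peaks had a fold enrichment that no peak at the genome background had. The lowest fold enrichment among peaks whose local background equalled the genome background was 2.70 in NTG, 2.44 in siINO80#1 and 2.53 in siINO80#2. In the dense stretch 49.2% (46.8 to 51.6), 45.8% (43.5 to 48.1) and 54.1% (51.5 to 56.5) of the peaks lay under this value, whereas 12.5%, 9.84% and 12.8% did in the reference. From 44 Mb to the end the shares were 12.2%, 9.25% and 11.9%, and on chromosome 20 they were 36.1%, 31.1% and 39.5%. The weakest decile of each list by fold enrichment took up 39.7%, 41.5% and 43.0% of the peaks of the dense stretch, and the strongest decile 4.68%, 4.63% and 5.01%. Fold enrichment is a ratio to the local background, on which the dense stretch was selected. These shares and the lower median fold enrichment are therefore not independent of that selection and are descriptions.

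Strong peaks were denser than in the reference too, although by less. Peaks with a fold enrichment of at least 4 numbered 287, 260 and 199, or 14.35, 13.0 and 9.95 per Mb, against 8.62, 7.74 and 5.62 per Mb in the reference. From 40 to 44 Mb they were at 5.00, 4.25 and 2.00 per Mb, under the reference. By the other measure of strength, a −log10 q of at least 5, the dense stretch had 26.3, 27.05 and 23.4 peaks per Mb, the 4 Mb that followed 11, 14 and 10.75, and the reference 10.6, 11 and 8.34. The dense stretch thus lay above the reference by both measures. The 4 Mb that followed lay below it by fold enrichment and above it by −log10 q, though close to it in NTG. The dense stretch also held 10.2 protein-coding genes per Mb, against 7.45 in the reference and 6.46 from 44 Mb to the end. The 4 Mb that followed it held 1 protein-coding gene in all.

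The siINO80 lists were compared with NTG by the number of peaks and by the peaks they shared. The dense stretch held 1.10 times as many peaks in siINO80#1 as in NTG (95% interval 1.03 to 1.18) and 0.922 times as many in siINO80#2 (0.859 to 0.989). In the reference the ratios were 0.978 (0.966 to 0.991) and 0.747 (0.736 to 0.757). In number of peaks, then, the 2 siRNAs lay on opposite sides of NTG in the dense stretch. The whole siINO80#2 list was shorter, with 0.762 times as many peaks as NTG. As a share of its own list the dense stretch was higher with both siRNAs, at 2.61% and 2.86% against 2.36% in NTG. At a fold enrichment of at least 4, a threshold chosen after seeing the data, both ratios to NTG were below 1. They were 0.906 (0.763 to 1.08) and 0.693 (0.576 to 0.834), against 0.897 and 0.652 in the reference. Peaks with a −log10 q of 5 or more gave 1.03 (0.911 to 1.16) and 0.890 (0.784 to 1.01), against 1.04 and 0.784, and both intervals of the dense stretch included 1. From 44 Mb to the end the ratios over all peaks were 0.998 and 0.763.

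Peaks of the dense stretch were matched in another list, with an overlap of at least 1 bp, less often than those of the reference. Of the NTG peaks, 847 of 1646 had no overlapping siINO80#1 peak, where 43.5% of all NTG peaks of the series had none, so that 48.5% (46.1 to 51.0) were matched, against 60.5% in the reference. In siINO80#2 there was no match for 929 NTG peaks, with 52% over all NTG peaks, and 43.6% (41.2 to 46.0) were matched, against 51.0% in the reference. From 40 to 44 Mb, 33.6% of the NTG peaks were matched in siINO80#1 and 30.9% in siINO80#2. On chromosome 20 these shares were 53.7% and 43.8%, also below the reference. Of the 1813 siINO80#1 peaks, 1019 were not matched in NTG and 1023 not in siINO80#2, with 43.4% and 47.8% over the whole list. Of the 1517 siINO80#2 peaks, 800 were not matched in NTG and 727 not in siINO80#1, with 36.4% and 30.9% over the whole list. The unmatched share was thus higher than over the whole list in each of the 6 comparisons.

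This difference shrank or changed its sign when peaks of equal strength, here the same decile of fold enrichment, were compared. Fold enrichment is a ratio to the local background, on which the dense stretch was selected. Peaks of the same decile can therefore differ in reads and in −log10 q. The matched shares of the reference were averaged over deciles of fold enrichment with the weights of the dense stretch. They became 44.5% for NTG in siINO80#1 and 34.5% for NTG in siINO80#2, which lay below the 48.5% and 43.6% of the dense stretch. For siINO80#1 in siINO80#2 the reference value was 37.0% and the dense stretch had 43.6%. In the other direction, siINO80#2 peaks were matched in NTG in 47.3% of cases (44.8 to 49.8) against 56.0% in the reference at equal strength, and in siINO80#1 in 52.1% (49.6 to 54.6) against 59.7%. For siINO80#1 in NTG the values were 43.8% (41.5 to 46.1) and 46.6%. Against the reference at equal strength, then, matches were more frequent in 3 comparisons and less frequent in 3, but 2 of these signs depended on the setting. NTG in siINO80#1 went from 4.02 percentage points to -4.66 at a minimum pileup of 5 genome backgrounds and to -0.746 with strength measured by −log10 q, and siINO80#1 in NTG went from -2.85 to 2.95 at a −log10 q of at least 5. At a −log10 q of at least 5 the plain difference from the reference also turned for NTG in siINO80#2 (5.09 percentage points) and for siINO80#1 in siINO80#2 (4.85). Peaks that lie more densely also overlap more often by position alone, and the dense stretch was selected on density. Peaks of siINO80#1, for example, covered 3.78% of the dense stretch and 0.959% of the reference. The part of this in the matched shares and in the shared classes below was not tested.

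Strong peaks of the dense stretch were found in every list, as they were in the reference. In the highest decile of fold enrichment, all 77 NTG peaks, all 84 siINO80#1 peaks and all 76 siINO80#2 peaks had a match in both other lists, and the 95% Wilson intervals began at 95.2%, 95.6% and 95.2%. In the reference the matched shares of this decile were 96.8% or more, close to those of the dense stretch. In the lowest decile 28.0% of 653 NTG peaks were matched in siINO80#1, against 32.2% in the reference. For the 652 weakest siINO80#2 peaks the matched share in NTG was 27.0%, against 49.9% in the reference. In the fifth decile 54.7% of the NTG peaks of the dense stretch and 42.8% of those of the reference were matched in siINO80#1.

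**Figure D3:**
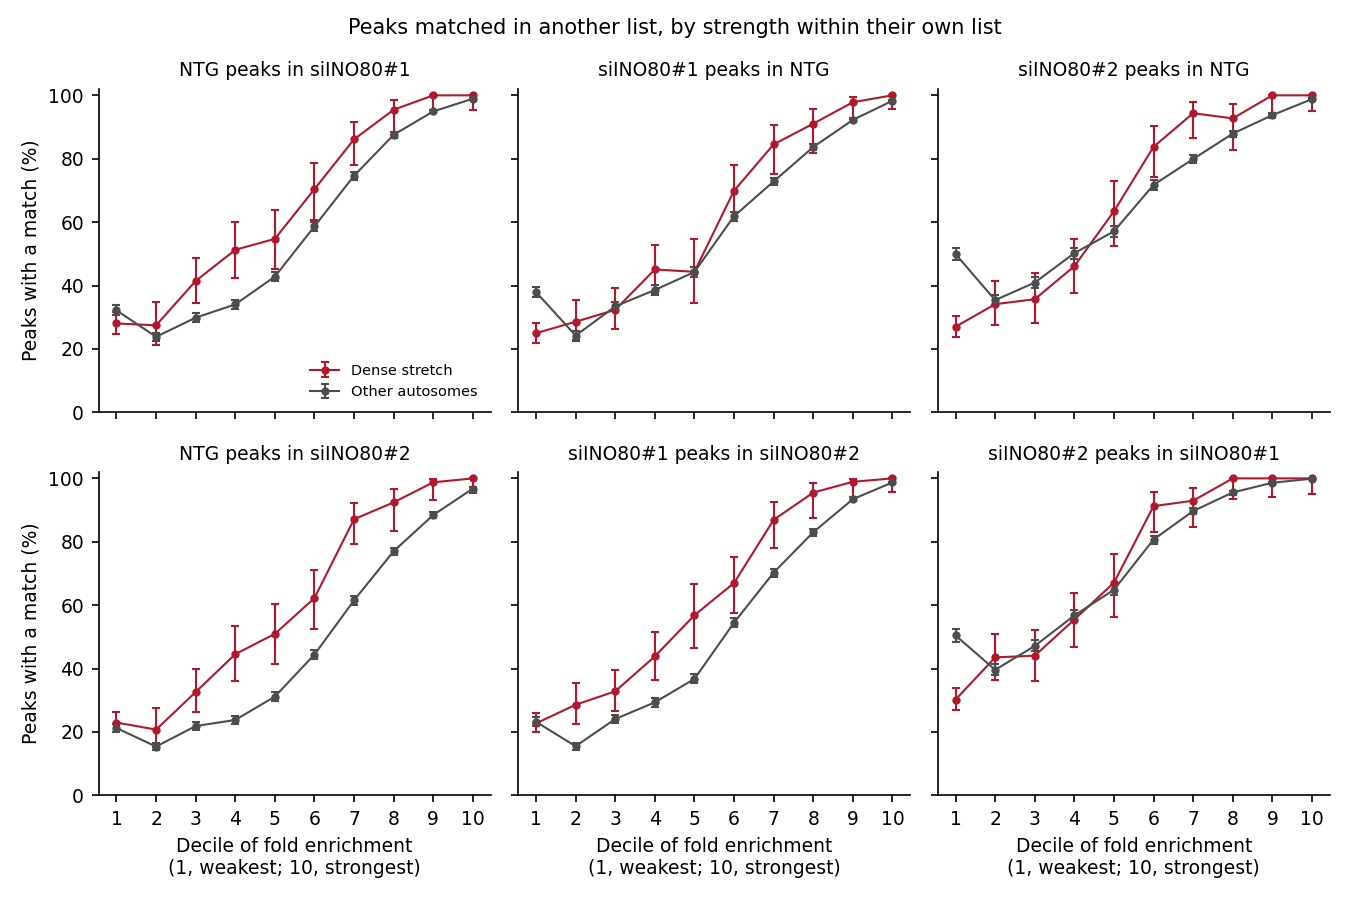
Share of peaks with an overlapping peak in another list, for each ordered pair of lists, by decile of fold enrichment within the peak's own list, in the dense stretch (red) and in the autosomes other than 2, 6 and 14 (grey); bars are 95% Wilson intervals. All 77 NTG peaks of the highest decile in the dense stretch were matched in both siINO80 lists, whereas 28.0% of the NTG peaks of the lowest decile were matched in siINO80#1.

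Each region belongs to 1 of 7 classes, according to which lists had a peak there. In the dense stretch, 725 regions (22.6%) were open in NTG alone, with 24.4% over all regions of the series, 816 (25.4%) in siINO80#1 alone, with 21.6%, and 601 (18.7%) in siINO80#2 alone, with 11.7%. All 3 lists shared 593 regions (18.5%), with 26.8% over the series. Both siINO80 lists and not NTG held 185 regions (5.76%), with 5.19%, close to the share over the series. NTG and siINO80#1 shared 185 (5.76%, with 7.64%), and NTG and siINO80#2 shared 106 (3.30%, with 2.62%).

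Regions of a single list made up 66.7% (65.1 to 68.3) of the dense stretch, 47.8% from 44 Mb to the end and 52.8% of the reference. Their share was 74.9% from 40 to 44 Mb and 62.2% on chromosome 20, so it was not particular to the dense stretch. Per Mb, regions shared by all 3 lists were nevertheless denser than in the reference, at 29.65 against 9.83, and from 44 Mb to the end they were at 9.69. Regions of a single list numbered 107 per Mb in the dense stretch and 16.85 per Mb in the reference.

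**Figure D4:**
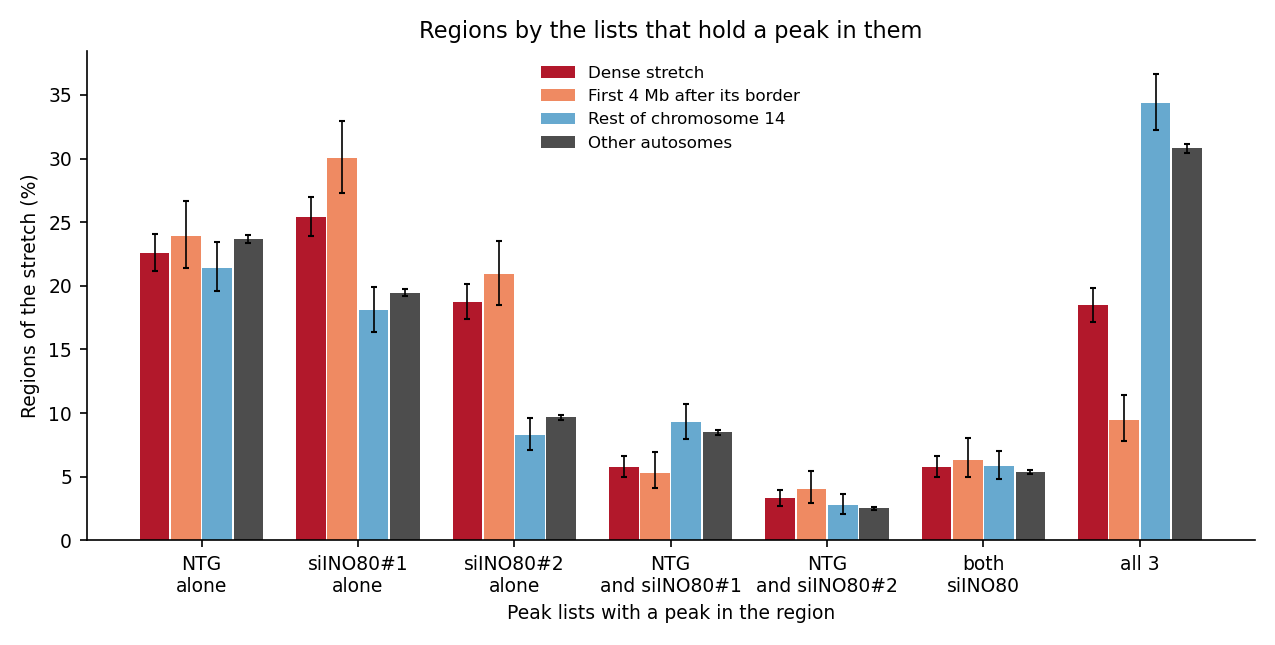
Share of regions in each of the 7 classes, by the peak lists that hold a peak in the region, for the dense stretch, the first 4 Mb after its border, the rest of chromosome 14 (from 44 Mb) and the autosomes other than 2, 6 and 14; bars are 95% Wilson intervals. The class of all 3 lists took 18.5% of the dense stretch and 30.8% of the other autosomes, and the class of both siINO80 lists 5.76% and 5.39%.

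The dense stretch was rich in regions far from start sites. The strongest summit was within 1 kb of an annotated start site (TSS-proximal) in 364 of the 3211 regions, or 11.3% (10.3 to 12.5), against 23.4% in the reference and 27.4% from 44 Mb to the end. Introns held 1939 regions (60.4%, against 43.0% in the reference) and intergenic sequence 822 (25.6%, against 30.5%). From 40 to 44 Mb only 22 of 995 regions (2.21%) were TSS-proximal. The lower share in the dense stretch went with more TSS-proximal regions per Mb, 18.2 against 7.46 in the reference. Regions of every kind of place were denser there, and so were protein-coding genes. Of the regions open in all 3 lists, 28.7% (25.2 to 32.4) were TSS-proximal, against 9035 of 21529 in the reference, and of those open with both siRNAs against INO80 alone 11.9% (7.99 to 17.3), against 12.9%.

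Promoters of the dense stretch were open in nearly the same number in each list. Of its 204 protein-coding genes, 137 (67.2%) had a peak within 1 kb of a start site in NTG, 136 (66.7%) in siINO80#1 and 138 (67.6%) in siINO80#2. Peaks in all 3 lists were found at 130 of the 204 genes, with 51.6% over all protein-coding genes of the series, and in no list at 57, with 34.5%. There were 6 genes with a peak in NTG only, with 3.28% over all genes, and 3 in both siINO80 lists only, with 0.917%, numbers too small to set apart from these shares. In the reference 60.5%, 59.8% and 52.6% of 16310 genes had a peak. The siINO80#2 list, the shortest, thus had fewer open promoters than NTG in the reference. In the dense stretch the 3 shares lay within each other's 95% Wilson intervals (60.4 to 73.2 in NTG and 61.0 to 73.7 in siINO80#2). With 204 genes these intervals are wide, so they cannot show that the dense stretch differed from the reference. From 44 Mb to the end the shares of 409 genes were 73.6%, 74.1% and 69.4%, also with overlapping intervals.

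The 3 genes listed as liver and stress regulators were open in all 3 lists. FOXA1, the pioneer transcription factor of liver enhancers (chr14:38058757-38065264, minus strand), had a fold enrichment of 5.16 in NTG, 5.10 in siINO80#1 and 5.74 in siINO80#2, at a local background of 7.95, 8.85 and 7.91 times the genome background. NFKBIA, the inhibitor that retains NF-κB in the cytoplasm, had 4.10, 3.84 and 2.84, and EGLN3, a prolyl hydroxylase that marks hypoxia-inducible factors for degradation, had 6.63, 7.04 and 5.44. Fold enrichments of different lists rest on different backgrounds and depths, so their differences are not changes in accessibility.

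All 5 genes of chromatin and RNA proteins had a peak in each list. PRMT5, an arginine methyltransferase of histones and splicing proteins, had 12.29, 10.30 and 9.85, and HNRNPC, which binds nascent transcripts, 12.48, 11.39 and 9.45. The nucleosome remodeler CHD8 had 9.23, 10.15 and 10.69, the histone chaperone subunit SUPT16H 8.22, 7.35 and 8.11, and BAZ1A, a subunit of an ISWI remodeler, 5.57, 5.53 and 5.07. Each of them stood above the percentile 81 of fold enrichment in each list.

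Of 5 proteasome genes, 4 were open in all 3 lists and the thymus-specific subunit PSMB11 in none. PSMA6, a subunit of the outer ring, had 7.33, 7.29 and 7.01, and PSMB5, the subunit with chymotrypsin-like activity, 5.50, 5.20 and 4.90. PSME1 and PSME2, which form an activator of the proteasome, had 4.88, 4.49 and 3.55, and 6.28, 6.10 and 4.96. All 8 housekeeping genes were open in each list, among them the purine salvage enzyme PNP (9.12, 9.48 and 8.97), the secretory coat subunit SEC23A (7.42, 7.38 and 7.48) and the ubiquitin ligase G2E3 (10.15, 12.21 and 10.51). The repair endonuclease APEX1 and OSGEP, which acts in tRNA modification, start side by side and shared 1 peak (5.96, 5.56 and 5.47).

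Some listed genes that serve other tissues had no peak. Over all protein-coding genes of the series 51.6% were open in all 3 lists and 34.5% in none. The families given here are too small to set apart from these shares. Of 8 genes of the RNase A family, ANG (angiogenin) and RNASE4, which share a promoter and 1 peak, were open in all 3 lists at 5.48, 3.62 and 3.93, while RNASE3, RNASE6, RNASE7 and RNASE8 had no peak. RNASE2, an eosinophil protein, had a peak in NTG only (3.23), and RNASE1, the pancreatic enzyme, in both siINO80 lists only (2.11 and 2.94). The heart myosins MYH6 and MYH7 had no peak, and of the leukocyte granule proteases GZMH, CTSG and CMA1 had none and GZMB 1 peak in siINO80#2 of 1.87. The reductase genes DHRS4 (9.05, 6.26 and 7.46) and DHRS2 (3.43, 2.84 and 3.12) were open in each list.

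Regulators of other tissues were divided. NKX2-8 had no peak. NKX2-1, which directs lung and thyroid development, had 5.02, 4.63 and 3.19, PAX9, which acts in pharyngeal and tooth development, 3.94, 2.85 and 3.05, and NPAS3, a neural transcription factor, 2.40, 2.57 and 2.76. CEBPE, a factor of granulocytes, had a peak in NTG (3.24) and siINO80#1 (2.09) only.

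The olfactory receptor and T cell receptor genes lie close together near the start of the dense stretch, among closely related copies where reads may be shared between genes, so their values are uncertain. Of 26 olfactory receptor genes 7 had a peak within 1 kb in at least 1 list (4 in NTG, 1 in siINO80#1 and 2 in siINO80#2) and 0 in all 3 lists, and of 14 olfactory receptor pseudogenes 2 had a peak and 0 in all 3 lists. Over all protein-coding genes of the series 51.6% had a peak in all 3 lists and 34.5% in none. Of 127 gene segments of the T cell receptor 38 had a peak in at least 1 list and 11 in all 3. No list stood out at the T cell receptor segments, with 21, 23 and 24 open segments.

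After 40 Mb, the liver gene SERPINA1, which encodes α1-antitrypsin, had 6.61 in NTG, 4.97 in siINO80#1 and 3.59 in siINO80#2. Of the 7 serpin genes of its cluster 4 were open in all 3 lists, SERPINA3 in none, SERPINA4 in siINO80#1 only (2.70) and SERPINA11 in NTG (5.65) and siINO80#2 (3.63). SERPINA6, the carrier of cortisol, had 6.20, 4.72 and 4.24, and SERPINA10, an inhibitor of coagulation, 6.38, 5.47 and 6.60. YY1 had 5.02, 5.55 and 3.88. Of 3 genes of the AP-1 family, FOS had 3.24, 3.63 and 2.68, BATF a peak in siINO80#2 only (2.41) and JDP2 none. Of 5 other regulators, HIF1A (9.78, 9.34 and 8.22), MAX, DICER1 and HSP90AA1 were open in all 3 lists and AKT1 had no peak, the proteasome genes PSMA3, PSMC1 and PSMC6 were open in all 3 lists, and the imprinted genes DLK1 and MEG3 had no peak. SIX4, a factor of muscle and sensory organs, was open in all 3 lists, and SIX6 and OTX2 of the eye in none.

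The AP-1 site was searched as TGACTCA on both strands in the 200 bp around each strongest summit, and the FOXA site as TGTTTAC on both strands. A match is a description of the letters and not of binding. In the dense stretch 243 regions, or 7.57% (6.70 to 8.53), held the AP-1 site, against 13.3% in the reference, 15.4% from 44 Mb to the end and 4.32% from 40 to 44 Mb. The FOXA site was found in 149 regions, or 4.64% (3.97 to 5.42), against 5.24% in the reference. The median GC content of the windows was 42.5% in the dense stretch and 48% in the reference.

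The share with the AP-1 site depended on the class of the region. Among regions open with both siRNAs against INO80 and not in NTG, 29 of 185 (15.7%, 11.1 to 21.6) held it in the dense stretch, 35.6% (34.1 to 37.2) in the reference and 38.5% (29.7 to 48.1) from 44 Mb to the end. In NTG alone the shares were 5.38% in the dense stretch and 5.54% in the reference. Of the regions open in all 3 lists, 83 of 593 held it in the dense stretch (11.4% to 17.0%) and 16.8% in the reference. With TSS-proximal regions left out, the share in both siINO80 lists was 16.0% (11.1 to 22.3) in the dense stretch and 37.2% in the reference. With all regions counted, the dense stretch thus lay below the other autosomes in the class of both siINO80 lists by more than the intervals. This was not particular to that class. In siINO80#1 alone the shares were 5.02% (3.73 to 6.75) and 13.1%, and in siINO80#2 alone 6.49% (4.78 to 8.75) and 13.2%. NTG and siINO80#1 had 3.78% (1.84 to 7.60) and 9.12%. In NTG and siINO80#2 the dense stretch was also lower, with intervals that nearly touched. Intervals overlapped in NTG alone and in all 3 lists when all regions were counted. Without TSS-proximal regions, the class of all 3 lists had 17.3% in the dense stretch and 24.5% in the reference. The interval of the dense stretch then ended at 21.1% and that of the reference began at 23.8%, so they did not overlap. In NTG alone the intervals still overlapped without TSS-proximal regions, at shares of 5.60% and 5.69%. From 40 to 44 Mb the class of both siINO80 lists had 12.7% (6.58 to 23.1). Weak peaks were more frequent in the dense stretch, and their part in these differences was not tested.

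**Figure D5:**
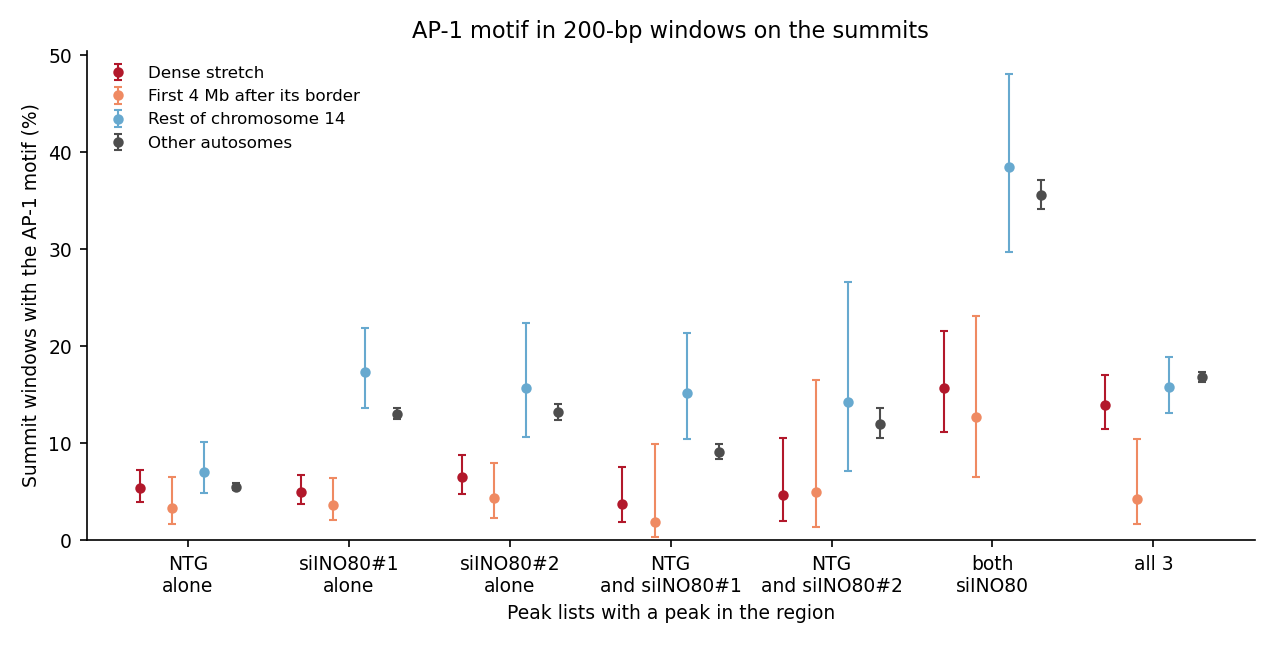
Share of summit windows of 200 bp that hold the AP-1 site on either strand, by class of the region, for the dense stretch, the first 4 Mb after its border, the rest of chromosome 14 (from 44 Mb) and the autosomes other than 2, 6 and 14; bars are 95% Wilson intervals. In the class of both siINO80 lists the share was 15.7% in the dense stretch and 35.6% in the other autosomes, and in NTG alone 5.38% and 5.54%. In siINO80#1 alone it was 5.02% and 13.1%, and in siINO80#2 alone 6.49% and 13.2%.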

How the data were processed

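ATAC-seq peak lists of HepG2 cells were used, 1 per siRNA group. The titles of the samples gave the groups. According to the submitters' processing notes, Trim Galore 0.4.1, Bowtie2, SAMtools, MACS2 and deepTools 2.2.4 and the build hg19 were used for the series. Which settings applied to ATAC-seq, and how the 3 replicates were combined, is not given in the sources used here. The fold enrichment of each peak was deposited as a ratio of the reads at the summit to the local background, and its p-value as a −log10 value. The deposited score of the last kind is the −log10 of the q-value, whose lowest value was 1.30. The deposited positions and summit offsets (other columns) were used as given with GRCh37, on which 0 summits of chromosome 14 fell on unknown bases.

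Pileup and background at each summit were solved from fold enrichment and −log10 p, on the assumption of the MACS2 formulas. The error in −log10 p was at most 0.00121, and any other whole number of reads gave an error of 0.0275 or more. Genome background means the lowest local background in a list. Where an interval had several summits, only that of highest fold enrichment was kept. Start sites, exons and introns were those of GENCODE lifted to GRCh37, with 221317 start sites, and sequences are the GRCh37 reference. Shares have 95% Wilson intervals, densities exact Poisson intervals, and both cover counting error only. The solving step was tested on 5000 simulated peaks, the merging and the classes on 521 simulated regions against bedtools, and the overlaps on 1470 simulated intervals, and 100% were recovered.

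The members, gene lists, tests and motifs were chosen with earlier results of these data known. Named regions were the 4 regions in all 3 lists with the highest lowest percentile of fold enrichment, the 3 of highest fold enrichment in NTG alone, the 3 in both siINO80 lists alone with the highest lower percentile and the 2 widest, and after 40 Mb 2, 1 and 1 of the first 3 kinds. Genes were named from fixed lists whatever their values. A few listed genes are not reported here. Alternatives were a −log10 q of at least 5, a minimum pileup (5 genome backgrounds), lists of equal size, the 10000 strongest peaks, merging within 500 bp, an overlap of 50%, other borders, other distances to start sites and a window of 100 bp. No test between groups was made, because each group had 1 list. The tools were bedtools 2.31.1, pysam 0.24.0, scipy 1.17.1, pandas 2.3.3, numpy 2.4.6, matplotlib 3.10.9 and Python 3.11.15.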

Additional observations from a re-analysis of the deposited data

Results flagged for a closer look

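In the dense stretch the 2 siRNAs against INO80 moved in opposite directions from NTG in 5 of 7 measures compared. The difference between the siRNAs was not tested, since each had 1 list. Peaks per Mb differed from NTG by 8.35 with siINO80#1 and by -6.45 with siINO80#2. The siINO80#2 list was the shortest, and as a share of its own list the dense stretch was higher with both. These shares were 2.61% and 2.86%, against 2.36% in NTG. For peaks with a fold enrichment of at least 4 both lay under NTG, at 13.0 and 9.95 per Mb against 14.35. The median local background differed by -0.116 and by 0.00416 times the genome background. The TSS-proximal share of peaks differed by -1.24 and by 1.48 percentage points. In the reference this share also lay on opposite sides of NTG, at 29.3% and 31.9% against 29.5%. The share of peaks under the lowest fold enrichment found at the genome background differed by -3.43 and by 4.84 percentage points. This cutoff is set by each list (2.70 in NTG, 2.44 in siINO80#1 and 2.53 in siINO80#2), so the shares are not at 1 common threshold. The same share lay on opposite sides of NTG in the reference too, at 9.84% and 12.8% against 12.5%. The share of protein-coding genes with a peak differed by -0.490 and by 0.490 percentage points, which is 1 gene either way. For this share, peaks per Mb and the median local background, both siINO80 lists lay under NTG in the reference.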

How the results depend on the processing

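No paired analysis was possible because replicates were not listed one by one, and no replicate was left out for the same reason. The density ratio of the dense stretch to the rest of the chromosome (3.31 in NTG, 3.48 in siINO80#1 and 3.77 in siINO80#2) stayed above 1 in every setting run. The dense stretch was selected on peak density in these same lists, so a ratio above 1 is a description and no support. The settings show how the size of the ratio varied. It was 2.53, 2.57 and 2.78 at a −log10 q of at least 5; 4.29, 4.36 and 5.06 at the pileup minimum of 5 genome backgrounds; 2.21 in NTG and 2.11 in siINO80#1 at equal list size; 1.65, 1.91 and 1.91 for the 10000 strongest peaks; 2.84, 2.94 and 3.11 with the border at 38 Mb; 3.79, 4.25 and 4.54 at 42 Mb; and 2.24, 2.36 and 2.55 per annotated start site. Of the settings chosen after seeing the data, a border at 44 Mb gave 4.44, 4.99 and 5.39, and a fold enrichment of at least 4 gave 1.70, 1.82 and 1.77.

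The local background ratio (1.499, 1.47 and 1.52) was 1.98, 1.95 and 2.13 at a −log10 q of at least 5, 1.36, 1.37 and 1.41 with the border at 38 Mb, 1.53 in NTG and 1.56 in siINO80#2 at 42 Mb, 1.62, 1.54 and 1.63 at 44 Mb, and 1.502 in siINO80#1 and 1.48 in siINO80#2 over 1 kb from a start site. Local background was also used to select the dense stretch, so this ratio is a description too.

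The dense stretch held 732 regions at a −log10 q of at least 5, 1772 at the pileup minimum of 5 genome backgrounds and 1931 at equal list size. By class, the shares at a −log10 q of at least 5 were 16.4% in NTG alone, 14.1% in siINO80#1 alone, 7.24% in siINO80#2 alone, 7.10% in NTG and siINO80#1, 7.92% in both siINO80 lists and 44.4% in all 3. Merging within 500 bp gave, in the same order with NTG and siINO80#2 before both siINO80 lists, 20.1%, 22.0%, 16.1%, 7.52%, 4.09%, 7.49% and 22.7%. Equal list size gave 10.8%, 10.6%, 44.1%, 1.502%, 5.28%, 6.78% and 21.0%. The high share of siINO80#2 alone follows from the construction of this setting, which removes the weakest peaks of the other lists only. With the border at 44 Mb, all 3 lists shared 16.3%.

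The plain difference in matched share, in percentage points (dense stretch minus reference), was negative in each pair of lists (-11.9 and -7.39 for NTG in siINO80#1 and siINO80#2, -17.7 and -12.7 for siINO80#1 in NTG and siINO80#2, -21.7 and -22.8 for siINO80#2 in NTG and siINO80#1). In this order it was -2.77, 5.09, -2.48, 4.85, -3.42 and -3.89 at a −log10 q of at least 5, -5.81, 8.82, -8.31, 4.31, -29.6 and -33.4 at equal list size, and -15.0, -10.05, -21.0, -15.5, -24.9 and -25.7 with the border at 44 Mb. At this pileup minimum NTG in siINO80#1 had -20.6 and siINO80#1 in siINO80#2 -6.60.

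At equal strength the differences in this order were 4.02, 9.09, -2.85, 6.62, -8.70 and -7.60. At a −log10 q of at least 5 the last 5 became 16.1, 2.95, 14.6, -0.353 and -0.383. The pileup minimum gave -4.66 for NTG in siINO80#1, -8.50 for siINO80#1 in NTG, 10.8 for siINO80#1 in siINO80#2, and -14.3 and -14.6 for siINO80#2. Equal list size gave 16.6 for NTG in siINO80#2, 12.5 for siINO80#1 in siINO80#2, and -11.8 and -12.0 for siINO80#2. An overlap of 50% gave 6.52 for NTG in siINO80#2. With strength measured by −log10 q, chosen after seeing the data, the values were -0.746, 3.18, -5.44 and 1.27 for the first 4 and -11.2 for siINO80#2 in siINO80#1. The sign of this comparison thus depended on the setting for NTG in siINO80#1 and for siINO80#1 in NTG. The causes of these shifts were not tested.

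The TSS-proximal share of regions was 25.3% at a −log10 q of at least 5, 9.18% with the border at 44 Mb, 17.7% within 2.5 kb and 6.14% for protein-coding start sites. The AP-1 site was found in 9.37% of regions at equal list size and in 4.70% of windows of 100 bp, in which both siINO80 lists had 10.3% and the FOXA site 2.49%. The number of siINO80#1 peaks over NTG, tried at both strengths after seeing the data, changed its side of 1 at a fold enrichment of at least 4 in the dense stretch (1.10 to 0.906) and at a −log10 q of at least 5 in the reference (0.978 to 1.04). Of 275 other values, 126 stayed within their 95% interval or, for counts, within 1.5 times, 85 were higher and 64 lower. This count left out every value that changed sign. It also left out the main measures of the dense stretch wherever they moved out of their interval. Depth is unknown, so what it limits cannot be stated beyond the counting intervals.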
